A study of Mus musculus with 6 samples.

Results

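The proteasome genes were defined by their symbols, as every gene whose symbol starts with *Psm*, a letter from a to g and a digit. This gave 50 of the 19505 genes with a symbol on the array, each measured by 1 probe set. Of these, 48 encode proteasome subunits or proteins that assemble, activate or inhibit the proteasome, and the other 2, *Psmc3ip* and *Psme3ip1*, share the letters but encode proteins named as partners of a subunit. Gene expression had been measured with Mouse Clariom S arrays, which read each gene through several short probes, in the triceps muscles of 6 male mice of the SAMP-10 strain, one array per mouse. SAMP-10 is a senescence-accelerated inbred strain, so the accelerated aging was shared by both groups. The u40Hz-stimulation group (mice 4, 10 and 11) had been exposed round the clock for 5 weeks to unmodulated vibration and inaudible sound at 40 Hz from a woofer, and the control group (mice 1, 6 and 8) was not stimulated. The sample labels give no age for either group. The comparison asked whether the transcripts of the protein-degrading machinery differed with the stimulation.

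The proteasome is the protease that degrades proteins tagged with ubiquitin. Its 20S core is a barrel of stacked α rings and β rings, with the peptide-cutting sites on *Psmb5*, *Psmb6* and *Psmb7* inside, and its 19S cap recognizes the ubiquitin chain, removes it, unfolds the substrate with a ring of ATPases and feeds it into the core. Under interferon the immunosubunits *Psmb8*, *Psmb9* and *Psmb10* replace the standard catalytic subunits, which changes the peptides made for display on MHC class I. In skeletal muscle the proteasome breaks down myofibrillar proteins, and its subunits and the muscle ubiquitin ligases are known to be induced together when muscle wastes.

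The arrays carried the markers of skeletal muscle. The 8 listed skeletal muscle markers had a mean log2 signal from 17.83 to 18.09 in the u40Hz mice and from 17.72 to 18.14 in the control mice. One of them, *Acta1*, was at the highest value of the data, 19.93, in all 6 mice. Markers of other tissues and fibre types differed widely between mice. The mean of 7 adipocyte markers was 12.90 in u40Hz mouse 4, against 6.42 and 6.89 in u40Hz mice 10 and 11 and 6.13 to 7.82 in the control mice, and *Ucp1*, the uncoupling protein of brown fat, was at 15.62 in u40Hz mouse 4 and at 4.16 or less in all others. The mean of 7 slow fibre markers was 9.50, 12.23 and 12.63 in the u40Hz mice, against 13.46, 7.49 and 9.35 in the control mice, so control mouse 1 was the highest and control mouse 6 the lowest. The 6 tendon markers had a mean of 8.22, 7.86 and 7.22 in the u40Hz mice, against 9.69, 8.64 and 9.95 in the control mice, so their groups did not overlap. In whole muscle, fewer cells of one type and less RNA per cell cannot be told apart.

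Over all 22206 probe sets, no adjusted p from limma fell below 0.606, so none passed the threshold of 0.05. At an unadjusted p under 0.05 there were 1556. Among the proteasome genes the smallest adjusted p was 0.711, so no member passed the threshold, and no difference given below for a member is a call. Signals are on a log2 scale, where a difference of 1 is a 2-fold change, and are given for u40Hz mice 4, 10 and 11, then for control mice 1, 6 and 8. Log2 fold changes are u40Hz minus control.

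Of the 50 genes, 31 had a lower mean with u40Hz stimulation (48.6% of all probe sets did), 18 had a higher mean and 1 was equal. Their median log2 fold change was -0.09, beside 0.01 over all probe sets. One gene, *Psmd6*, had a lower mean at an unadjusted p under 0.05 (3.15% of all probe sets), and none had a higher mean at that level (3.86% of all probe sets). In 5 genes every u40Hz mouse lay below every control mouse (6.05% of all probe sets): *Psmb6*, *Psmb7*, *Psmc3*, *Psmc4* and *Psmd6*. In 2 genes, *Psmd7* and *Psme2*, every u40Hz mouse lay above every control mouse (6.40% of all probe sets). The differences were small, from -0.46 for *Psmd6* to 0.46 for *Psmb11*. The proteasome genes also varied little between mice of a group, with a median within-group SD of 0.23, beside 0.29 over all probe sets. The members range from bright to dim, and 6 of them, *Psmb9*, *Psmb10*, *Psma8*, *Psmb11*, *Psmg3* and *Psmg4*, had a mean signal below the array-wide median of 5.57.

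**Figure D1:**
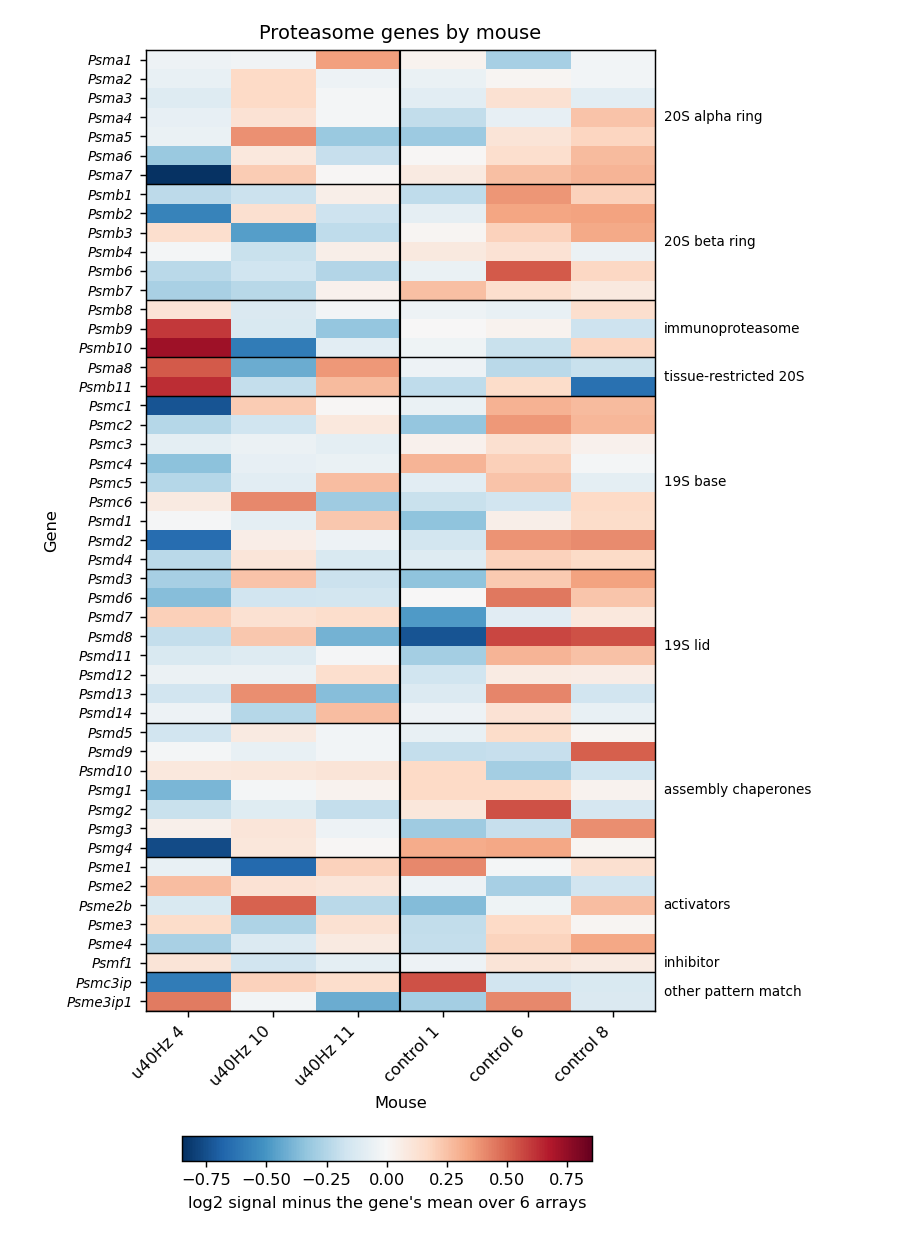
Log2 signal of each of the 50 proteasome genes (rows, grouped by role) in each mouse (columns, u40Hz mice left of the line, control mice right), as the difference from the gene's mean over the 6 arrays. The column of u40Hz mouse 4 is blue in most rows of the core and the cap and red for *Psmb9* and *Psmb10*, and the columns of control mice 6 and 8 are mostly red in the core and the cap.

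The constitutive 26S particle, counted as 7 α subunits, 6 β subunits and 17 cap subunits, had lower means with u40Hz stimulation for 21 of its 30 genes and higher means for 9, with a median of -0.16. All 30 were among the 11104 brighter probe sets, of which 5984 had a lower mean and whose median was -0.03. The 20S core had 8 of 13 genes lower (median -0.24) and the 19S cap 13 of 17 (median -0.15). Within the core the rings differed in their values: all 6 β-ring genes were lower, with a median of -0.34, whereas 5 of the 7 α-ring genes were higher, with a median of 0.02. The α-ring count was not stable, at 1 of 7 higher without u40Hz mouse 10, 2 without control mouse 1 and 3 with array weights. The difference between the rings was not tested. The genes of a particle are measured on the same arrays and are not replicates of the stimulation.

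**Figure D2:**
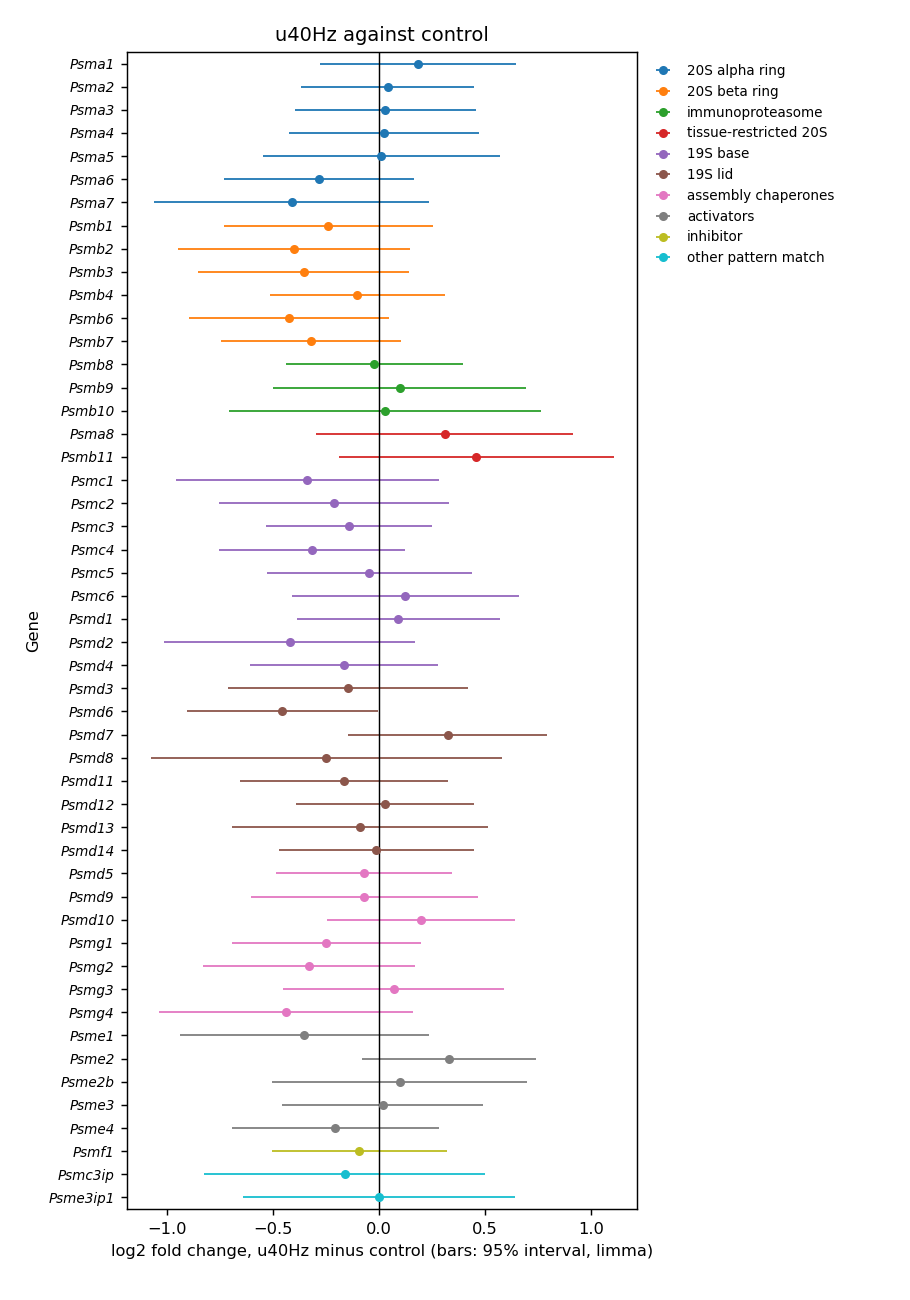
Log2 fold change (u40Hz minus control, x axis) of each proteasome gene with its 95% confidence interval from limma, grouped by role. The 6 β-ring genes lie left of 0, and only the interval of *Psmd6* lies wholly on one side of 0, from -0.91 to -0.01.

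The α ring frames the core and gates its entrance. *Psma1* had log2 signals of 11.95, 11.96 and 12.34 in the u40Hz mice, against 12.02, 11.71 and 11.97 in the control mice (log2 fold change 0.18, unadjusted p = 0.391 from limma, and 0.06 without u40Hz mouse 11). *Psma2*, *Psma3*, *Psma4* and *Psma5* differed by 0.04, 0.03, 0.02 and 0.01. The groups overlapped in all 5. *Psma6* had signals of 12.53, 12.94 and 12.65 in the u40Hz mice, against 12.86, 12.99 and 13.12 in the control mice (log2 fold change -0.28, unadjusted p = 0.185 from limma). *Psma7* was at 11.11, 12.17 and 11.96 in the u40Hz mice, against 12.03, 12.21 and 12.24 in the control mice (log2 fold change -0.41, unadjusted p = 0.181 from limma). One mouse set the size of the *Psma7* value: without u40Hz mouse 4 the log2 fold change was -0.10. Its adipocyte marker mean was the highest of the 6 mice, and the part of that tissue in the *Psma7* value was not tested.

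The β ring holds the proteolytic sites, and all of its measured genes had lower means. *Psmb6*, which carries the caspase-like site, had log2 signals of 12.13, 12.19 and 12.11 in the u40Hz mice, against 12.30, 12.88 and 12.53 in the control mice. The 3 u40Hz mice lay close to each other and all below the lowest control mouse. The mean was 12.14 ± 0.04 in the u40Hz-stimulation group and 12.57 ± 0.29 in the control group (SD, n = 3 each). The log2 fold change was -0.43 with a standard error of 0.21 (95% confidence interval -0.90 to 0.05, unadjusted p = 0.0708, adjusted p = 0.717 from limma). Leaving out each mouse in turn it ran from -0.56 to -0.27, and only without control mouse 1 was the unadjusted p under 0.05 (0.0374).

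*Psmb7*, which carries the trypsin-like site, had log2 signals of 14.54, 14.58 and 14.85 in the u40Hz mice, against 15.07, 14.96 and 14.90 in the control mice. The groups did not overlap, although u40Hz mouse 11 and control mouse 8 were close. The log2 fold change was -0.32 with a standard error of 0.19 (unadjusted p = 0.122, adjusted p = 0.744 from limma), and from -0.42 to -0.26 when each mouse was left out. *Psmb5*, which carries the chymotrypsin-like site, was not analysed here. The other β subunits are structural. *Psmb2* was at 10.22, 10.92 and 10.61 in the u40Hz mice, against 10.71, 11.12 and 11.13 in the control mice (log2 fold change -0.40, unadjusted p = 0.129 from limma), and it was at -0.22 without u40Hz mouse 4. *Psmb3* was at 10.25, 9.64 and 9.89 in the u40Hz mice, against 10.12, 10.30 and 10.43 in the control mice (log2 fold change -0.36, unadjusted p = 0.139 from limma). Here u40Hz mouse 4 was the highest of its group, and without it the log2 fold change was -0.52, with an unadjusted p under 0.05. *Psmb1* and *Psmb4* had log2 fold changes of -0.24 and -0.10, with overlapping groups, and leaving out each mouse moved them from -0.41 to -0.11 and from -0.16 to -0.04. All 6 β-ring genes kept a lower mean with u40Hz stimulation whichever mouse was left out, with medians between -0.42 and -0.24. The tendon markers were lower in the same mice, and their part in the β-ring values was not tested.

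The promoters of members whose groups did not overlap are shown because the antioxidant response element, the site of the transcription factors Nrf1 (encoded by *Nfe2l1*) and Nrf2 (*Nfe2l2*), is known as the element through which cells induce proteasome subunit genes. Of the 50 genes, 42 had a window in the RefSeq promoter table of GRCm38.p6, and of the 7 genes without overlap *Psmb6*, *Psmc4*, *Psmd6* and *Psme2* did. Each line gives the 250 bases before the transcription start, 5′ to 3′ on the gene's strand. Capitals mark matches on either strand to the antioxidant response element core TGACNNNGC, the GC box GGGCGG and the ETS-type site CCGGAAGT.
*Psmb6* (chr11:70525107-70525356, + strand): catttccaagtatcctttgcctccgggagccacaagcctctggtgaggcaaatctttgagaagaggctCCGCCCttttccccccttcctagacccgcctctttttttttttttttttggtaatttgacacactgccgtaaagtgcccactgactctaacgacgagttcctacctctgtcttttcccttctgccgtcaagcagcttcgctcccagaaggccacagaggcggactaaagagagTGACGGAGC
*Psmc4* (chr7:28050093-28050342, - strand): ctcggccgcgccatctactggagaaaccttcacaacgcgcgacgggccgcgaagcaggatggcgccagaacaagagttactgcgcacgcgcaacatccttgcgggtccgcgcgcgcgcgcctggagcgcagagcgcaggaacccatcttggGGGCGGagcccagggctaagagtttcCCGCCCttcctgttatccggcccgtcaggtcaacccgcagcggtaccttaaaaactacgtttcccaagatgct
*Psmd6* (chr14:14120946-14121195, - strand): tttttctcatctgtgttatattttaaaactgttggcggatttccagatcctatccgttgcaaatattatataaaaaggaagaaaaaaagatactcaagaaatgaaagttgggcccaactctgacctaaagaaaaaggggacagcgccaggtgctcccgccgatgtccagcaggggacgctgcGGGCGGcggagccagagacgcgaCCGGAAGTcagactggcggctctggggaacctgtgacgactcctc
*Psme2* (chr14:55591102-55591351, - strand, the first of its 2 windows): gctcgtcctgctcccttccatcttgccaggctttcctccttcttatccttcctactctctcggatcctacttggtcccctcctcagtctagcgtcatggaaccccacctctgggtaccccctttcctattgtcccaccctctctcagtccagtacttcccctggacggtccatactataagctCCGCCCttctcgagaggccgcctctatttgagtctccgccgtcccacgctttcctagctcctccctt

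In *Psmb6* the last 9 bases before the start, TGACGGAGC, match the antioxidant response element core, and the windows of the other 3 genes hold no match. Of the 42 genes, 4 (9.52%) held this core in any of their windows, *Psmb6*, *Psmc6*, *Psmd12* and *Psmd9*, beside 11.5% of 27025 genes. The CCAAT box was in 16 of the 42 (38.1%, beside 37.5% of all genes). The interferon-type element GAAANNGAA was in 3 (7.14%, beside 8.18%), *Psmb3*, *Psmd4* and *Psmd9*. None of these is an immunosubunit gene, but not every member had a window to search. The GC box was in 23 (54.8%, beside 35.4%) and the ETS-type site in 5 (11.9%, beside 3.23%), both looked for, like the interferon-type element in this form, after the windows had been read. These are matches of letters in short windows and say nothing of binding.

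The immunoproteasome genes had log2 fold changes near 0. *Psmb8*, which replaces *Psmb5*, had log2 signals of 5.78, 5.54 and 5.64 in the u40Hz mice, against 5.62, 5.60 and 5.81 in the control mice (log2 fold change -0.02, 95% confidence interval -0.44 to 0.39). *Psmb9*, which replaces *Psmb6*, was at 5.28, 4.55 and 4.35 in the u40Hz mice, against 4.68, 4.71 and 4.50 in the control mice (log2 fold change 0.10, 95% confidence interval -0.50 to 0.70). *Psmb10*, which replaces *Psmb7*, was at 6.14, 4.82 and 5.33 in the u40Hz mice, against 5.38, 5.23 and 5.60 in the control mice (log2 fold change 0.03, 95% confidence interval -0.71 to 0.76). In *Psmb9* and *Psmb10* the highest value of all 6 mice was that of u40Hz mouse 4, and the other u40Hz mice spread around or below the control mice. Without u40Hz mouse 4 the log2 fold changes were -0.18 and -0.33. The intervals of *Psmb9* and *Psmb10*, whose signals were also dim, reached 0.50 or more on both sides of 0. *Psmb8*, with means of 5.65 in the u40Hz mice and 5.68 in the control mice, was only just above the array-wide median of 5.57.

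The exchange of subunits was examined as the immunosubunit minus the standard subunit in each mouse. *Psmb9* minus *Psmb6* was -6.85, -7.64 and -7.76 in the u40Hz mice, against -7.62, -8.17 and -8.03 in the control mice. The group difference was 0.52 (two-sided exact permutation test, p = 0.3, adjusted over the 2 pairs p = 0.6), and it was 0.24 without u40Hz mouse 4. *Psmb10* minus *Psmb7* was -8.40, -9.76 and -9.52 in the u40Hz mice, against -9.69, -9.73 and -9.30 in the control mice, a group difference of 0.35 (two-sided exact permutation test, p = 0.7, adjusted p = 0.7). It was -0.07 without u40Hz mouse 4. With all mice, most of both differences came from the lower means of *Psmb6* (-0.43) and *Psmb7* (-0.32). The immunosubunits *Psmb9* and *Psmb10* themselves differed by 0.10 and 0.03. The smallest p that this exact test can give for 3 mice against 3 is 0.1. The sizes of these differences within a mouse depend on the probes and carry no ratio of the proteins.

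The other genes of MHC class I processing had higher means in 8 and lower means in 3 of the 11 measured of 13 listed, with a median of 0.31 and of 0.07 without u40Hz mouse 4. None had an unadjusted p under 0.05. *Tap2*, one chain of the peptide transporter whose gene neighbours *Psmb8* on chromosome 17, was at 6.51, 6.40 and 6.50 in the u40Hz mice, against 6.16, 6.04 and 6.02 in the control mice (log2 fold change 0.40, unadjusted p = 0.0508 from limma). *Tap1*, the other chain of the transporter, lies between *Psmb8* and *Psmb9* and differed by -0.02. *Erap1*, the peptidase that trims peptides in the endoplasmic reticulum, was at 9.79, 9.52 and 9.58 in the u40Hz mice, against 9.19, 9.41 and 9.08 in the control mice (log2 fold change 0.40, unadjusted p = 0.0661 from limma). The groups did not overlap in *Tap2* and *Erap1*, 2 of the 11 genes (6.40% of all probe sets were higher without overlap). The light chain *B2m* was at 16.83, 15.25 and 15.53 in the u40Hz mice, against 15.49, 14.24 and 15.54 in the control mice (log2 fold change 0.78, unadjusted p = 0.138 from limma), at 0.30 without u40Hz mouse 4 and at 0.36 without control mouse 6. *Canx*, a chaperone of the heavy chain, differed by 0.31 (unadjusted p = 0.172 from limma), and by 0.19 without u40Hz mouse 10. The mean of 10 measured leukocyte markers of 12 listed ran from 5.06 to 5.33 in the u40Hz mice and from 5.03 to 5.24 in the control mice. The pan-leukocyte marker *Ptprc* ran from 6.65 to 7.01 in the u40Hz mice and from 5.93 to 7.01 in the control mice. Single markers went both ways, 7 of the 10 with a higher and 3 with a lower mean. *Coro1a* and *Cd3e* differed by 0.56 and 0.54 (unadjusted p = 0.0528 and 0.0537 from limma), and *Csf1r* by -0.70 (unadjusted p = 0.0744 from limma). Only the dim *Cd3e* had groups without overlap, with higher values (6.40% of all probe sets). The part of the leukocyte markers in the MHC class I values was not tested.

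**Figure D3:**
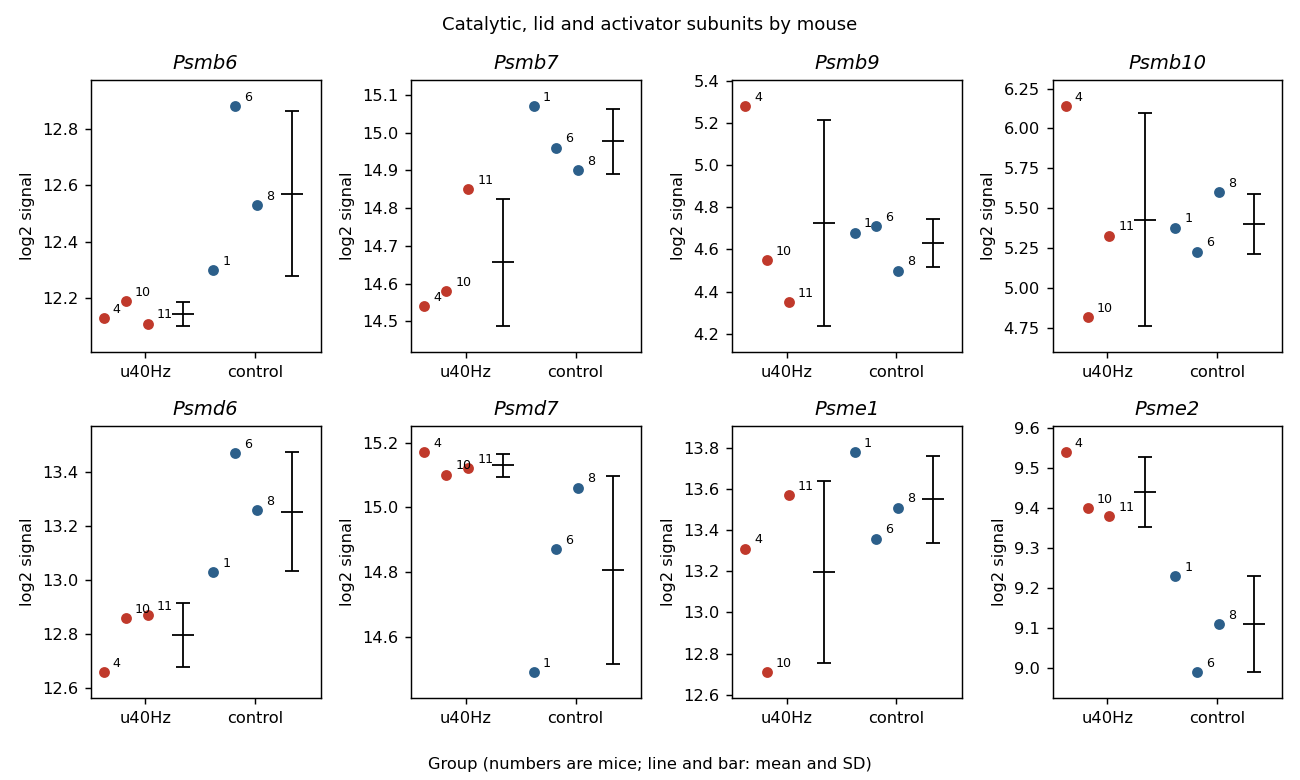
Log2 signal (y axis) of 8 genes in the 3 u40Hz mice (left of each panel) and the 3 control mice (right), with the mean and SD of each group beside the points and numbers naming the mice. *Psmb6*, *Psmb7* and *Psmd6* lie lower and *Psmd7* and *Psme2* higher in all u40Hz mice than in any control mouse, and u40Hz mouse 4 is the highest point in *Psmb9* and *Psmb10*. The y axes do not start at 0 and differ between panels.

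The genes of the base of the 19S cap, the part that unfolds substrates, had lower means with u40Hz stimulation in 7 of 9 (median -0.17). *Psmc3*, an ATPase of the ring, had log2 signals of 13.24, 13.27 and 13.24 in the u40Hz mice, against 13.36, 13.46 and 13.36 in the control mice. The 6 mice covered only 0.22, the narrowest range of all 50 genes, and the groups did not overlap (log2 fold change -0.14 with a standard error of 0.17, unadjusted p = 0.427 from limma). *Psmc4*, another ATPase, was at 9.99, 10.27 and 10.28 in the u40Hz mice, against 10.63, 10.54 and 10.32 in the control mice (log2 fold change -0.32, unadjusted p = 0.137 from limma). Here too the groups did not overlap, but u40Hz mouse 11 and control mouse 8 were nearly equal. *Psmd2*, the scaffold that docks ubiquitin-carrying shuttle proteins, was at 12.23, 12.93 and 12.83 in the u40Hz mice, against 12.72, 13.26 and 13.28 in the control mice (log2 fold change -0.42, unadjusted p = 0.140 from limma). It was at -0.21 without u40Hz mouse 4. *Psmc1*, also an ATPase, was at 11.80, 12.75 and 12.54 in the u40Hz mice, against 12.48, 12.83 and 12.80 in the control mice (log2 fold change -0.34, unadjusted p = 0.245 from limma), and at -0.06 without u40Hz mouse 4. The remaining 5 genes overlapped between the groups: *Psmc2* at -0.21, the ubiquitin receptor *Psmd4* at -0.17, *Psmc5* at -0.05, the scaffold *Psmd1* at 0.09 and *Psmc6* at 0.12. Without control mouse 1 *Psmc2* was at -0.43 and *Psmd4* at -0.26, and without control mouse 6 *Psmc2* was at -0.08 and *Psmd4* at -0.11.

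The genes of the lid, which carries the deubiquitinase that releases the ubiquitin chain, had lower means in 6 of 8 (median -0.12). *Psmd6*, a scaffold subunit of the lid, had log2 signals of 12.66, 12.86 and 12.87 in the u40Hz mice, against 13.03, 13.47 and 13.26 in the control mice. Every u40Hz mouse lay below every control mouse. The mean was 12.80 ± 0.12 in the u40Hz-stimulation group and 13.25 ± 0.22 in the control group (SD, n = 3 each). The log2 fold change was -0.46 with a standard error of 0.20 (0.729-fold, unadjusted p = 0.0473, adjusted p = 0.711 from limma). It ran from -0.57 to -0.35 when each mouse was left out, and its unadjusted p was under 0.05 in 1 of those 6 fits, the one without control mouse 1 (0.0335).

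*Psmd7*, the inactive partner of the deubiquitinase, was the only cap gene higher in all u40Hz mice. Its log2 signals were 15.17, 15.10 and 15.12 in the u40Hz mice, against 14.49, 14.87 and 15.06 in the control mice (log2 fold change 0.32 with a standard error of 0.21, unadjusted p = 0.153 from limma). Control mouse 1 was far below the others, and without it the log2 fold change was 0.17. The deubiquitinase itself, *Psmd14*, differed by -0.01, with the groups overlapping. *Psmd8* was the most variable cap gene, at 13.79, 14.22 and 13.59 in the u40Hz mice, against 13.26, 14.56 and 14.53 in the control mice (log2 fold change -0.25 with a standard error of 0.36). Control mouse 1 was again apart, and without it the log2 fold change was -0.68, with an unadjusted p under 0.05, whereas it was -0.03 without control mouse 6. *Psmd11* was at 12.77, 12.79 and 12.89 in the u40Hz mice, against 12.61, 13.19 and 13.15 in the control mice (log2 fold change -0.17), and it was at -0.35 without control mouse 1 and -0.06 without control mouse 6. *Psmd3*, *Psmd13* and *Psmd12* had log2 fold changes of -0.15, -0.09 and 0.03, and *Psmd3* was at -0.35 without control mouse 1 and -0.01 without control mouse 8.

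Within the constitutive 26S particle the differences between mice of a group were as large as those between the groups. The mean deviation of its 30 genes from their own averages was -0.21, 0.03 and -0.05 in the u40Hz mice, against -0.12, 0.19 and 0.15 in the control mice. So u40Hz mouse 4 and control mouse 1 were low, control mice 6 and 8 were high, and the groups overlapped. Of the 29 genes with a single lowest mouse, 13 (44.8%) had it in u40Hz mouse 4 (21.3% of all probe sets) and 8 (27.6%) in control mouse 1 (14.6% of all probe sets). The single highest mouse was control mouse 6 for 11 of the 30 genes (36.7%, beside 18.5% of all probe sets) and control mouse 8 for 7 (23.3%, beside 12.9%). Without u40Hz mouse 4, 19 of the 30 genes had a lower mean with u40Hz stimulation (median -0.10), without control mouse 1 it was 26 (median -0.26), and without control mouse 6 it was 19 (median -0.07). The β ring was the only one of the 7 classes plotted by mouse whose group values did not overlap, at -0.19, -0.18 and -0.08 in the u40Hz mice, against 0.00, 0.28 and 0.18 in the control mice. The assembly chaperones came close to it, as only u40Hz mouse 10 at 0.027 and control mouse 1 at 0.026 overlapped there. Of the marker lists, the adipocyte markers were highest in u40Hz mouse 4, and the slow fibre markers were highest in control mouse 1 and lowest in control mouse 6, with control mouse 8 and u40Hz mouse 4 also low. The tendon markers, like the β ring, were lower in every u40Hz mouse than in any control mouse. Their part in the levels of the proteasome genes was not tested.

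**Figure D4:**
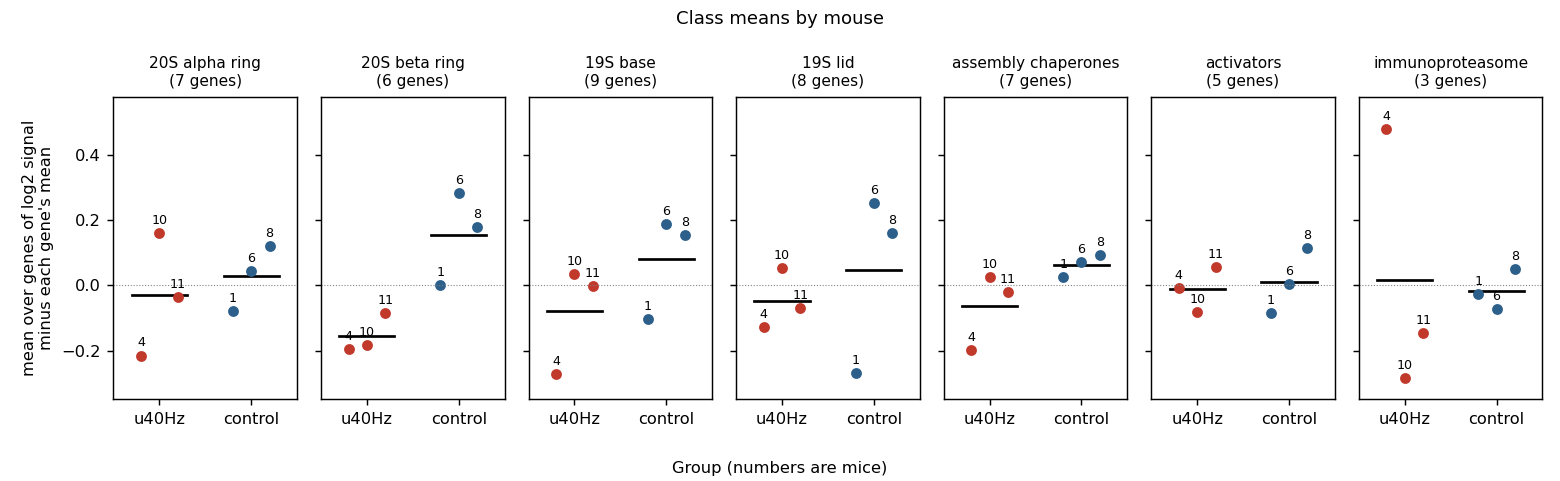
Mean over the genes of a class of the log2 signal minus each gene's mean over the 6 arrays (y axis), for each mouse (numbered points) and group (u40Hz left, control right, lines are group means), in 7 classes. The β ring separates the groups, u40Hz mouse 4 is low in the α ring and the 19S base and high in the immunoproteasome, and control mouse 1 is low in the 19S lid at -0.27.

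The chaperones that build the particle had lower means in 5 of 7 (median -0.07), and in none were the groups apart. *Psmg1* and *Psmg2* encode the pair that assembles the α ring. *Psmg2* was at 10.86, 10.95 and 10.85 in the u40Hz mice, against 11.15, 11.59 and 10.91 in the control mice (log2 fold change -0.33, unadjusted p = 0.169 from limma, and -0.14 without control mouse 6). *Psmg1* was at 8.39, 8.76 and 8.81 in the u40Hz mice, against 8.95, 8.95 and 8.81 in the control mice (log2 fold change -0.25, unadjusted p = 0.235 from limma, and -0.12 without u40Hz mouse 4). *Psmg4*, of the second α-ring pair, was at 4.54, 5.40 and 5.31 in the u40Hz mice, against 5.62, 5.63 and 5.32 in the control mice (log2 fold change -0.44, unadjusted p = 0.130 from limma), a dim signal in which u40Hz mouse 4 was the lowest. Without that mouse it was at -0.17. Its partner *Psmg3* differed by 0.07. The chaperones of the base were flat: *Psmd5* and *Psmd9* both differed by -0.07. *Psmd10*, also known as the oncoprotein gankyrin, was at 8.63, 8.64 and 8.65 in the u40Hz mice, against 8.71, 8.25 and 8.37 in the control mice (log2 fold change 0.20, unadjusted p = 0.341 from limma, and 0.10 without control mouse 6). The maturation factor *Pomp*, which is outside the symbol pattern, differed by -0.06.

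The activators open the core without the 19S cap, and their values went both ways (3 of 5 higher, median 0.02). *Psme1* and *Psme2* encode the α and β subunits of one ring, PA28, which interferon is known to induce, and they lie near each other on chromosome 14. *Psme1* was at 13.31, 12.71 and 13.57 in the u40Hz mice, against 13.78, 13.36 and 13.51 in the control mice (log2 fold change -0.35 with a standard error of 0.26, unadjusted p = 0.207 from limma). The value of *Psme1* was -0.11 without u40Hz mouse 10 and ran to -0.54 without u40Hz mouse 11. *Psme2* was at 9.54, 9.40 and 9.38 in the u40Hz mice, against 9.23, 8.99 and 9.11 in the control mice. Every u40Hz mouse was above every control mouse (log2 fold change 0.33 with a standard error of 0.18, 95% confidence interval -0.08 to 0.74, unadjusted p = 0.102 from limma), and leaving out each mouse gave 0.27 to 0.39. Set against each other after these values were seen, *Psme2* minus *Psme1* was -3.77, -3.31 and -4.19 in the u40Hz mice, against -4.55, -4.37 and -4.40 in the control mice. The groups did not overlap, with u40Hz mouse 10, the lowest in *Psme1*, the farthest from the control mice. As the pair was set up from these same values, its lack of overlap is no independent result. *Psme2b*, a near copy of *Psme2* whose probes may share its transcripts, differed by 0.10. *Psme3*, the nuclear activator PA28γ, was at 13.03, 12.61 and 13.00 in the u40Hz mice, against 12.66, 13.04 and 12.89 in the control mice (log2 fold change 0.02, unadjusted p = 0.938 from limma). *Psme4*, the activator PA200, was at 15.42, 15.58 and 15.77 in the u40Hz mice, against 15.49, 15.88 and 16.02 in the control mice (log2 fold change -0.21, unadjusted p = 0.360 from limma, and from -0.36 to -0.10 when each mouse was left out). *Psmf1*, the inhibitor PI31, was at 10.02, 9.75 and 9.83 in the u40Hz mice, against 9.87, 10.02 and 9.99 in the control mice (log2 fold change -0.09, unadjusted p = 0.620 from limma).

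The remaining 4 genes of the pattern are not part of the common particle. *Psma8*, the α subunit of testis, was at 4.55, 3.61 and 4.40 in the u40Hz mice, against 3.99, 3.80 and 3.84 in the control mice (log2 fold change 0.31, unadjusted p = 0.275 from limma, and 0.13 without u40Hz mouse 4). *Psmb11*, the β subunit of thymic epithelium, was at 4.08, 3.25 and 3.72 in the u40Hz mice, against 3.24, 3.61 and 2.82 in the control mice (log2 fold change 0.46, unadjusted p = 0.142 from limma, and 0.26 without u40Hz mouse 4). Both signals were far below the array-wide median, and the groups overlapped. *Psmc3ip*, which encodes a meiotic recombination protein, differed by -0.16, and *Psme3ip1* had equal means.

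Of 25 listed partners of the proteasome outside the symbol pattern, 21 were measured, 5 with a higher and 16 with a lower mean with u40Hz stimulation (median -0.14). The groups did not overlap in 2 with higher values (6.40% of all probe sets) and in 3 with lower values (6.05% of all probe sets). *Vcp*, the ATPase that extracts ubiquitinated proteins and hands them to the proteasome, had log2 signals of 12.79, 13.62 and 13.61 in the u40Hz mice, against 13.63, 14.42 and 14.20 in the control mice. The groups did not overlap, but u40Hz mouse 10 and control mouse 1 were nearly equal. The log2 fold change was -0.74 with a standard error of 0.30 (unadjusted p = 0.0374, adjusted p = 0.711 from limma), and -0.47 without u40Hz mouse 4. *Usp14*, a deubiquitinase that docks on the cap, was at 9.35, 9.96 and 9.95 in the u40Hz mice, against 10.05, 10.13 and 10.52 in the control mice (log2 fold change -0.48, unadjusted p = 0.0797 from limma, and -0.28 without u40Hz mouse 4). *Ecpas*, a scaffold that binds the 26S particle, differed by -0.36 (unadjusted p = 0.103 from limma, and -0.23 without u40Hz mouse 4), and in both genes every u40Hz mouse was below every control mouse.

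Among these partners *Nfe2l1* and *Nfe2l2*, which encode transcription factors of proteasome genes, had higher means in the u40Hz mice. *Nfe2l1* had log2 signals of 16.15, 16.01 and 16.40 in the u40Hz mice, against 15.75, 15.75 and 15.87 in the control mice. Every u40Hz mouse was above every control mouse (log2 fold change 0.40 with a standard error of 0.19, unadjusted p = 0.0676, adjusted p = 0.717 from limma), and leaving out each mouse gave 0.29 to 0.49. *Nfe2l2* was at 6.54, 6.64 and 7.35 in the u40Hz mice, against 6.30, 6.30 and 6.41 in the control mice (log2 fold change 0.51, unadjusted p = 0.0710 from limma), also without overlap. It was at 0.25 without u40Hz mouse 11, its highest, and at 0.66 without u40Hz mouse 4. Nrf1 is known to be cleaved and stabilised after translation, so transcript levels do not give its activity. *Ngly1*, the glycosidase needed for that processing, differed by -0.04, and *Sem1*, the small subunit of the lid outside the pattern, by -0.24, which was -0.05 without control mouse 6.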

How the data were processed

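One Affymetrix Mouse Clariom S array was hybridized per mouse. Scans were normalized by the authors with the Transcriptome Analysis Console, also named in the submitters' processing notes, and log2 signals of 22206 probe sets were deposited. Sources used here did not give the summary method or the annotation's build. The log2 signals entered the fit as deposited, with array medians from 5.53 to 5.61. Precision is limited by having 6 arrays. At most 1.27% of values were equal between any 2 arrays. The labels give no batch, and p-values measure the spread between these mice. Of the probe sets, 19572 carried 1 symbol, taken from the platform annotation.

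The groups were compared over all probe sets with limma 3.58.1 (lmFit, eBayes) under R 4.3.3, two-sided, with Benjamini-Hochberg adjustment. The fit was checked on simulated data. Named were the immunosubunits and their standard counterparts, the activators and inhibitor, members with an unadjusted p under 0.05 or without overlap, the 3 with the smallest p in each class, and up to 4 genes in each of 11 other lists (101 genes). The members and lists were chosen with earlier results of these data known. Alternatives were median centring, quantile normalization, a filter on dim probe sets, other variance priors, array weights, averaging the probe sets of a gene, and leaving out each mouse. Promoter windows came from the RefSeq table of GRCm38.p6.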

Additional observations from a re-analysis of the deposited data

How the results depend on the processing

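No alternative gave any probe set an adjusted p under 0.05 in limma (smallest 0.223). Each scaling moved the median of all probe sets by less than 0.05 on the log2 scale. Members with a lower mean at an unadjusted p under 0.05 numbered 0 with median centring and 3 (*Psmb7*, *Psmc3*, *Psmd6*) without variance moderation, and from 0 to 3 when each mouse was left out, 3 without control mouse 1 (*Psmb6*, *Psmd6*, *Psmd8*). Members with a higher mean numbered 1 without moderation and from 0 to 2 when each mouse was left out, 2 without u40Hz mouse 10 (*Psma8*, *Psmb11*). Leaving out a mouse leaves fewer to overlap, and members without overlap then numbered from 2 to 4 with higher and from 5 to 17 with lower values, the most without control mouse 1. The counts over all 22206 probe sets grew too, to 2719 with lower values without control mouse 1, against 1343 with all mice, and to as many as 2915 with higher values, against 1421. Class medians under leaving out each mouse ran from -0.19 to -0.08 for the assembly chaperones and from -0.11 to 0.10 for the activators, from -0.08 to 0.06 for the α ring, from -0.25 to -0.10 for the 19S base from -0.26 to 0.01 for the 19S lid and from -0.18 to 0.19 for the immunoproteasome. The sign of *Psmb10* minus *Psmb7* turned without u40Hz mouse 4 (-0.067 to 0.61). Signs also turned for genes near 0: *Psmb8* (-0.087 to 0.043), *Psmb9* (-0.18 to 0.29), *Psmb10* (-0.33 to 0.33, and -0.073 with array weights), *Psme3* (-0.085 to 0.15) and *Psmc3ip* (-0.30 to 0.092). The cause was not tested. So did, when a mouse was left out, *Psma2* to *Psma5*, *Psmc5*, *Psmc6*, *Psmd1*, *Psmd9*, *Psmd12* to *Psmd14*, *Psmg3*, *Psme2b* and *Psme3ip1*. Leaving out dim probe sets removed the 6 dim members, so they have no value there. No paired analysis was possible because the groups share no mouse numbers.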

Other observations

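The muscle ubiquitin ligases, which mark proteins for the proteasome when muscle wastes, did not move as one. Of the 5 measured, 2 were higher and 3 lower by their means in the u40Hz mice (median -0.08), and limma gave no unadjusted p under 0.05. *Fbxo32*, which encodes atrogin-1, had log2 signals of 13.70, 15.00 and 15.22 in the u40Hz mice, against 15.21, 15.66 and 15.24 in the control mice (log2 fold change -0.73, unadjusted p = 0.0896 from limma). It was at -0.26 without u40Hz mouse 4. *Trim63*, which encodes MuRF1, was at 14.50, 14.72 and 15.04 in the u40Hz mice, against 14.92, 15.00 and 15.44 in the control mice (log2 fold change -0.37, unadjusted p = 0.147 from limma, and -0.21 without control mouse 8). *Fbxo30*, which encodes the ligase MUSA1, was at 10.65, 10.86 and 11.07 in the u40Hz mice, against 10.69, 10.15 and 10.41 in the control mice (log2 fold change 0.44, unadjusted p = 0.0741 from limma). *Fbxo21*, the SMART ligase, differed by 0.19, and by 0.06 without u40Hz mouse 4. Of the 6 listed genes of ubiquitin and its activating enzymes 1 was analysed, *Uba6*, with a log2 fold change of 0.17.

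Other cell type markers differed in their own ways. The 6 tendon markers all had a lower mean with u40Hz stimulation at an unadjusted p under 0.05 in limma (3.15% of all probe sets did), with a median log2 fold change of -1.58. It was 2 of the 6 without variance moderation and 4 of the 6 without control mouse 8. The list was chosen with earlier results of these data known, so its count is no independent result. It includes *Fmod*, whose log2 fold change of -2.62 was the lowest of all probe sets. The mean of the 7 fast fibre markers ran from 19.29 to 19.39 in the u40Hz mice and from 19.39 to 19.48 in the control mice. *Myh4* and *Atp2a1* of that list were at 19.93, the highest value of the data, in all 6 mice. Signals at that ceiling cannot show a difference. The 4 endothelial markers had a mean of 11.08 to 11.41 in the u40Hz mice and of 10.16 to 11.36 in the control mice. All 4 had a higher mean with u40Hz stimulation, with a median log2 fold change of 0.57, which was 0.24 without control mouse 6. *Kdr* was at 0.59 (unadjusted p = 0.0503 from limma). It was the only 1 of the 4 without overlap (6.40% of all probe sets were higher without overlap).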
